A study of Mus musculus with 8 samples.

Results

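The genes described here encode the extracellular matrix and the proteins that hold cells to it or cut it: collagens, laminins and other basement membrane glycoproteins, interstitial matrix proteins, integrins and secreted proteases of the ADAMTS family. They were chosen by symbol, as collagen alpha chains, laminin chains, ADAMTS genes, numbered integrin chains and Itgav, plus 12 named matrix genes, and 50 of the 10453 genes in the table matched. Integrin chains with letter names other than alpha V, most of them of white blood cells, are outside the rule. These were 17 collagens, 8 basement membrane glycoproteins, 5 interstitial matrix proteins, 12 integrins and 8 ADAMTS proteases. Of the named genes, Nid2, Fbn1, Fbn2 and Tnc were not analysed here. All samples were B16, a pigmented mouse melanoma line, grown in DMEM with serum, penicillin and streptomycin. In the cells labelled Mettl5 KO, CRISPR/Cas9 editing had targeted Mettl5, the gene of an rRNA methyltransferase that modifies the small ribosomal subunit, and the other cells were labelled WT. KO input RNA, KO footprints, WT input RNA and WT footprints had 2 libraries each, and every culture received cycloheximide, an inhibitor of translation elongation, before lysis. Whether the KO cells were 1 clone, and whether both libraries of a group came from separate cultures, is not in the labels. The p-values therefore measure the spread between libraries alone, and this spread may be technical.

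Collagens are secreted chains that wind into triple helices, some forming fibrils and others, such as type IV, forming the sheet of the basement membrane. Laminins are trimers of an alpha, a beta and a gamma chain, which nidogen, agrin and perlecan tie into that sheet. Integrins are pairs of an alpha and a beta chain that bind these proteins outside the cell and link to actin inside it, and in melanoma they are known for their part in invasion. ADAMTS proteases are secreted metalloproteases that cut proteoglycans and procollagens. Ribosome profiling counts the stretches of mRNA that ribosomes protect (footprints). The ratio of footprints to input RNA (translational efficiency) stands for the density of ribosomes on an mRNA.

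Input libraries held 11927567 to 18823632 reads and footprint libraries 2279456 to 3098930, recovered from the authors' normalized values. Values below are the authors' normalized reads, which do not allow levels of different genes to be compared because they are not divided by length. Of the 50 genes, 44 had at least 20 reads in every input library and 28 in every footprint library, while 18 had under 10 reads in some footprint library. Mettl5 itself had 75.7 and 95.7 normalized reads in KO input, against 114 and 111 in WT input (-0.40 ± 0.10 log2 units, adjusted p = 0.00162). Its footprints were not lower, with 109 and 112 in KO and 91.1 and 113 in WT (0.12 ± 0.23 log2 units, adjusted p = 0.812). Counts per gene cannot show a small insertion or deletion, so KO here means the libraries labelled KO. Changes are given as log2 fold changes of KO against WT (log2 units), with the standard error of the limma fit after the ± sign. All 8 melanocyte markers were measured, summing to 103683 to 103866 in KO input and 92334 to 92843 in WT input, and to 275144 to 277957 in KO footprints and 210083 to 210736 in WT footprints. Their part in the results below was not tested. Of 10 fibroblast markers 5 were measured (Col1a1, Col1a2, Postn, Pdgfra and Pdgfrb), summing to 162 to 166 in KO input and to 167 in both WT input libraries, and 3 of these are matrix genes described below. The other markers of fibroblasts (Col3a1, Dcn, Lum, Thy1 and Fap) were not analysed here. Vwf, Cd68 and Cdh1, the 3 measured markers of 20 for endothelial, white blood and epithelial cells, each had at most 10.7 normalized reads in any input library.

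Input RNA gives the level of each mRNA. There, 9 integrins and 4 ADAMTS proteases were lower in KO cells, while type IV collagens and the beta chains of laminin were higher. Of the 50 genes, 11 were called higher and 18 lower in KO, 58% in all (limma, Benjamini-Hochberg adjusted p under 0.05 over all genes), while over all 10443 genes tested 36.4% were called, 17.9% higher and 18.6% lower. All 50 passed the filter on low values. In such bulk RNA, fewer cells of a type and less RNA per cell cannot be told apart. The median log2 fold change of the 50 was -0.072, against 0.0022 for all genes. Of 12 integrins 1 rose and 9 fell, of 8 ADAMTS proteases 0 rose and 4 fell, and of 17 collagens 5 rose and 1 fell. Of 8 basement membrane glycoproteins 3 rose and 2 fell, and of 5 interstitial matrix proteins 2 rose and 2 fell. In all 29 called genes the KO libraries lay outside the range of the WT libraries. The calls were made on these same values, so this order adds no support, here or for single genes below. Most changes were small: 3 called genes were over 1.5-fold higher (Col11a1, Bcan and Col4a2) and 3 over 1.5-fold lower (Itga2, Postn and Itga8).

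**Figure D1:**
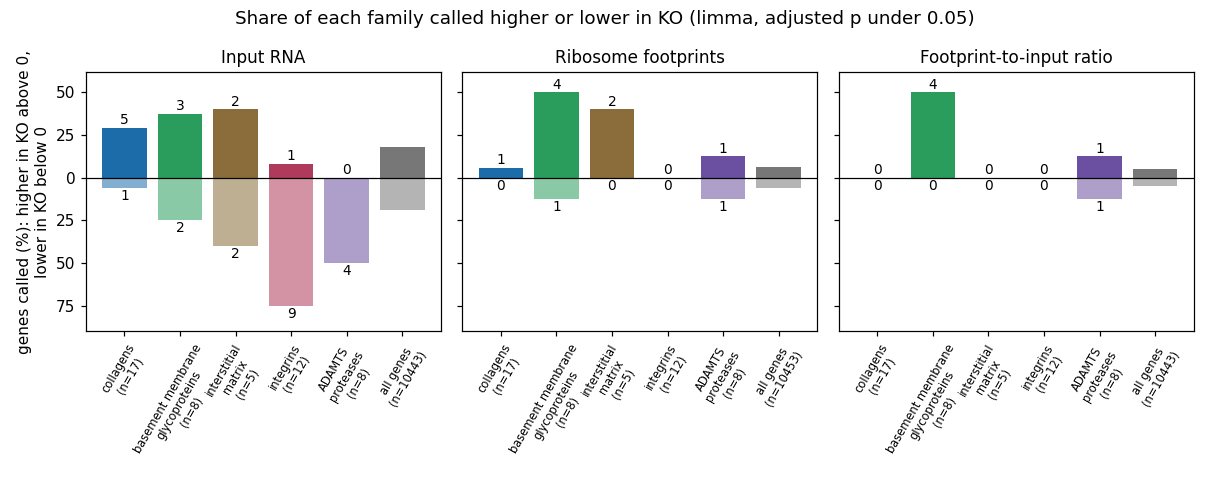
Share of each family called higher (bars above 0) or lower (paler bars below 0) in KO against WT, in percent of the genes tested, with the number of genes on each bar and all tested genes in grey. In input RNA 9 of 12 integrins were lower, and in the ratio 4 of 8 basement membrane glycoproteins were higher, while collagens, interstitial proteins and integrins had 0 calls.

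The type IV collagens of the basement membrane rose together. Col4a2 (ENSMUSG00000031503.13, chromosome 8, start 11312805, end 11449287; GRCm38) had 203 and 213 normalized reads in KO input, against 146 and 129 in WT input (0.60 ± 0.073 log2 units, adjusted p = 1.31e-08). Its partner chain Col4a1 had 118 and 115 in KO input and 97.4 and 85.9 in WT input (0.35 ± 0.092 log2 units, adjusted p = 0.00279), and Col4a5, a chain of other type IV networks, had 195 and 210.2 in KO input and 158 and 160.3 in WT input (0.35 ± 0.069 log2 units, adjusted p = 8.94e-05). All 3 were higher in both KO libraries than in either WT library. The call of Col4a1 was lost with DESeq2 and when limma was run without its mean-variance trend.

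Col4a1 and Col4a2 lie head to head on chromosome 8, and their annotated spans overlap, Col4a2 starting at 11312805 and the span of Col4a1 ending at 11312889, so reads from the overlap cannot be told apart unless counting used strand, which is not given in the sources used here. Their promoter windows (250 bases before to 50 after the start, RefSeq, GRCm38.p6) are shown because the windows of this pair, which rose together, share 78 bases, printed in capitals. The window of Col4a1 is set by a start site at 11312826, which is not the end of its annotated span. They are read on the plus strand at chr8:11312555-11312854 for Col4a2 and on the minus strand at chr8:11312777-11313076 for Col4a1.
Col4a2: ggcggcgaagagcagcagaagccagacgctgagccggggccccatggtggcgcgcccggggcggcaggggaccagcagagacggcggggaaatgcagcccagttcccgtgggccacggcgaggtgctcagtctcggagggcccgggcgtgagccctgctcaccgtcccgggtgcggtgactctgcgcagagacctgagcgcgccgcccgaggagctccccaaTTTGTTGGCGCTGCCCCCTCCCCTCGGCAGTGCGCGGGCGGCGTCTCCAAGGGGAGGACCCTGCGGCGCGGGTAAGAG
Col4a1: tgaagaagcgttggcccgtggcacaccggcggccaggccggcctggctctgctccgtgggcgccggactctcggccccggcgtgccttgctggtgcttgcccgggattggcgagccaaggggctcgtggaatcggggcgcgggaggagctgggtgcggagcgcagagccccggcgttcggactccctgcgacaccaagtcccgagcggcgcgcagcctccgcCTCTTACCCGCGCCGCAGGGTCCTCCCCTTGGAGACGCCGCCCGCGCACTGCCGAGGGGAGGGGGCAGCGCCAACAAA
A search of both strands found the CCAAT box (letters CCAAT) and the GC box (GGGCGG) in both windows. Windows were found for 36 of the 50 genes (39 windows in all), of which 35.9% held CCAAT and 69.2% GGGCGG, against 37.9% and 64.8% of the 10679 windows of genes in the table. The TATA box (TATAAA) was in 10.3% of the 39 windows and the AP-1 site (TGANTCA) in 2.56%, against 6.36% and 4.57%. The amino acid response element, searched as TGATGNAA, was in 0% of the 39 and in 2.17% of the windows of genes in the table. A match says only that these letters are present.

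Other collagens moved in both directions. Col16a1, a collagen that associates with fibrils, had 170.2 and 168 in KO input and 142 and 132 in WT input (0.30 ± 0.074 log2 units, adjusted p = 0.00125). Col5a1, a fibril-forming chain, was the 1 collagen that fell, with 339 and 359.9 in KO input and 402 and 381 in WT input (-0.16 ± 0.049 log2 units, adjusted p = 0.00686). Neither call held with DESeq2, and that of Col5a1 was also lost without limma's trend, without KO input replicate 1 (-0.12 log2 units) and without WT input replicate 1 (-0.13). Col11a1 (ENSMUSG00000027966.20, chromosome 3, start 114030479, end 114220756), a minor fibril chain best known from cartilage, had 9.2 and 7.03 normalized reads in KO input and 0.399 and 2.41 in WT input (2.05 ± 0.42 log2 units, adjusted p = 0.000127). These rested on 48 reads in KO and 6 in WT, and the ratio of the scaled reads was 6.29 with a 95% exact interval of 2.69 to 18.0 that covers counting error only. The call of Col11a1 was lost without limma's trend (adjusted p = 0.0727, over its alternatives 2.66e-08 to 0.0727), and its change was 1.41 log2 units without WT input replicate 1, 2.69 without WT input replicate 2 and 1.05 with a pseudocount of 5. Of the chains of the main fibrils, Col1a1 had 3.07 and 6.25 in KO input and 4.79 and 5.31 in WT input, and Col1a2 35.9 and 40.6 in KO input and 35.5 and 34.8 in WT input. Neither passed the test, and the other 9 collagens that did not pass had log2 fold changes between -0.027 and 0.41.

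Among laminins, both beta chains were higher in KO input and the alpha and gamma chains did not pass. Lamb1 (ENSMUSG00000002900.16, chromosome 12, start 31265146, end 31329644) had 159 and 148 in KO input and 119 and 117 in WT input (0.37 ± 0.079 log2 units, adjusted p = 0.000226). Lamb2 had 465 and 470.5 in KO input and 409 and 427 in WT input (0.16 ± 0.043 log2 units, adjusted p = 0.00314), a call lost without limma's trend and with DESeq2. The gamma chain Lamc1 had 1976 and 2005 in KO input and 2026 and 1964 in WT input, which overlap. Lama4 and Lama5, the measured alpha chains, had log2 fold changes of -0.065 and -0.088. Nid1, which bridges laminin and type IV collagen, had 303 and 299.7 in KO input and 239 and 245 in WT input (0.31 ± 0.055 log2 units, adjusted p = 1.37e-05). The proteoglycans of the basement membrane moved the other way. Hspg2, which encodes perlecan, had 2685 and 2675 in KO input and 3965 and 3979 in WT input (-0.57 ± 0.019 log2 units, adjusted p = 1.2e-24), and the smallest p-value of the 50 genes. Agrn, which encodes agrin, had 685 and 697 in KO input and 738 and 769 in WT input (-0.12 ± 0.035 log2 units, adjusted p = 0.00491). This call was lost with DESeq2, without limma's trend and without WT input replicate 2 (-0.094).

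Of the interstitial proteins, Bcan (ENSMUSG00000004892.13, chromosome 3, start 87987531, end 88002175), which encodes brevican, a proteoglycan best known from brain matrix, changed most. It had 96.9 and 102 in KO input and 40.3 and 30.4 in WT input (1.48 ± 0.13 log2 units, adjusted p = 2.07e-12), 2.78-fold higher. Postn (ENSMUSG00000027750.16, chromosome 3, start 54359267, end 54391041), which encodes the integrin-binding protein periostin, had 18.7 and 20.3 in KO input and 42.3 and 39.6 in WT input (-1.03 ± 0.17 log2 units, adjusted p = 3.59e-06), 2.05-fold lower. In both genes the KO libraries stood clear of the WT libraries. Fn1, which encodes fibronectin, had 1759.7 and 1722 in KO input and 1514 and 1517 in WT input (0.20 ± 0.025 log2 units, adjusted p = 2.05e-08). Sparc, which encodes a collagen-binding protein, had 3554 and 3577 in KO input and 3985 and 3982 in WT input (-0.16 ± 0.018 log2 units, adjusted p = 2.79e-09), a call lost without limma's trend. Vcan, which encodes versican, a substrate of ADAMTS proteases, had 10.1 and 9.38 in KO input and 11.97 and 12.1 in WT input and did not pass (adjusted p = 0.42), though it was called lower without limma's trend.

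The promoter windows of Bcan, which rose in input and footprints, and of Itga2, the integrin that fell most in input, are shown for comparison. Matches to the CCAAT box, GC box, TATA box or AP-1 site on either strand are in capitals (minus strand, chr3:88000307-88000606 for Bcan and chr13:114932051-114932350 for Itga2).
Bcan: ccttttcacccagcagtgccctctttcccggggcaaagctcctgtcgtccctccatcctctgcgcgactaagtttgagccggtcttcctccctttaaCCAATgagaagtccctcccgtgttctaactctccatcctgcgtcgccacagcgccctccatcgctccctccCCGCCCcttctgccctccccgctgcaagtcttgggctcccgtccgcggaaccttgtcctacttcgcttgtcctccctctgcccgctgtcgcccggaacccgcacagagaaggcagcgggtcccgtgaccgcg
Itga2: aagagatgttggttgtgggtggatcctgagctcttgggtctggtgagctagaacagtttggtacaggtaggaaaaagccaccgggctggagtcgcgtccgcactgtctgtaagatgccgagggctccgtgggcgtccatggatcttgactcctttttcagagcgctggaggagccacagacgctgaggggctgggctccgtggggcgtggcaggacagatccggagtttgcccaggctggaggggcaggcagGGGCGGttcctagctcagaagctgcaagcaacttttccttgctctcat
The window of Bcan held CCAAT and GGGCGG, and that of Itga2 held GGGCGG and no other of the 5 motifs searched.

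In KO input 9 of the 12 integrins were lower. Itga2 (ENSMUSG00000015533.9, chromosome 13, start 114833081, end 114932100), the alpha chain of a collagen receptor, had 1.84 and 1.17 normalized reads in KO input, against 9.58 and 8.21 in WT input (-1.99 ± 0.37 log2 units, adjusted p = 4.01e-05), from 9 reads in KO and 41 in WT. The ratio of its scaled reads was 0.173, with a 95% exact interval of 0.0738 to 0.361. Its change was -1.09 log2 units with a pseudocount of 5 and -2.54 with DESeq2. Itga8 (ENSMUSG00000026768.10, chromosome 2, start 12106632, end 12301985), the alpha chain of a receptor for nephronectin, had 9.81 and 7.82 in KO input and 19.2 and 17.9 in WT input (-0.998 ± 0.24 log2 units, adjusted p = 0.000858), a call lost with DESeq2 (adjusted p = 0.0569, over its alternatives 0.000213 to 0.0569). Both rested on few reads, and the well-covered chains moved less. Itgb3, the beta chain that pairs with alpha V, had 85.9 and 80.1 in KO input and 118 and 109 in WT input (-0.45 ± 0.094 log2 units, adjusted p = 0.000205). Itga4, whose receptor binds fibronectin and the vascular adhesion protein VCAM1, had 648 and 607 in KO input and 767 and 729 in WT input (-0.25 ± 0.038 log2 units, adjusted p = 8.95e-07). Itgb1, the beta chain shared by most matrix receptors, had 2366 and 2339 in KO input and 2604 and 2617 in WT input (-0.15 ± 0.021 log2 units, adjusted p = 2.87e-07). In these 3 genes both KO libraries were below both WT libraries, and the calls of Itga4 and Itgb1 were lost without limma's trend.

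Itgav, Itga6, Itga1 and Itga9 also fell, by 0.14, 0.10, 0.24 and 0.20 on the log2 scale, and each of these 4 calls was lost with DESeq2 and without limma's trend. Leaving out 1 input library also ended the calls of Itga1 (-0.23 without KO 1, -0.25 without KO 2, -0.15 without WT 1), Itga6 (-0.066 without KO 2, -0.081 without WT 1), Itga9 (-0.19 without KO 1, -0.21 without KO 2, -0.15 without WT 2) and Itgav (-0.095 without KO 2). Itga5, the alpha chain of the main fibronectin receptor, was the 1 integrin that rose, with 274 and 257 in KO input and 217 and 228 in WT input (0.25 ± 0.059 log2 units, adjusted p = 0.00079), a call lost with DESeq2 and without limma's trend. Itgb5, another partner of alpha V, had 268 and 252 in KO input and 247 and 247 in WT input, and Itgb4, the partner of alpha 6 in hemidesmosomes, 22.4 and 15.2 in KO input and 19.6 and 21.7 in WT input. Neither passed. The number of integrins called lower was 9 with limma, 9 with edgeR, 4 with DESeq2 and 3 without limma's trend. Itga1 and Itga4 overlap other genes in the annotation (Pelo and Cerkl), so their reads may be shared.

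ADAMTS proteases had 4 members lower and 0 higher in KO input with limma, 4 and 0 with edgeR, and 3 and 0 with DESeq2. At an unadjusted p under 0.05 with limma were 5 of 8, against 4638 of all 10443 genes. Adamts1 (ENSMUSG00000022893.14, chromosome 16, start 85793827, end 85803113), which cuts versican and aggrecan, had 1287 and 1245 in KO input and 1713 and 1692 in WT input (-0.43 ± 0.026 log2 units, adjusted p = 1.63e-16). Its neighbour Adamts5 (chromosome 16, start 85858157, end 85901125), the main aggrecan-cutting protease of mouse cartilage, had 41.7 and 38.7 in KO input and 69.0 and 53.1 in WT input (-0.58 ± 0.14 log2 units, adjusted p = 0.000719). The genes lie close together on chromosome 16, and each was lower in both KO libraries than in either WT library. Adamts20, which is known in mouse for its part in melanoblast survival and the belted coat pattern, had 132 and 134 in KO input and 157 and 179 in WT input (-0.33 ± 0.077 log2 units, adjusted p = 0.000737). Adamts14, which trims the amino end of procollagen, had 117 and 111 in KO input and 132 and 141 in WT input (-0.26 ± 0.083 log2 units, adjusted p = 0.011), a call lost with DESeq2, without limma's trend, without KO input replicate 2 (-0.23) and without WT input replicate 2 (-0.22). The calls of Adamts5 and Adamts20 were lost without limma's trend. Adamts4, Adamts9, Adamts10 and Adamts12 had log2 fold changes between -0.34 and 0.063 and did not pass.

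Over the 50 genes, the counts in input RNA were 7 higher and 10 lower with DESeq2, and 7 and 7 without limma's trend, where 1721 and 1276 genes of the table were called. None of the 29 calls changed sign under any alternative run.

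**Figure D2:**
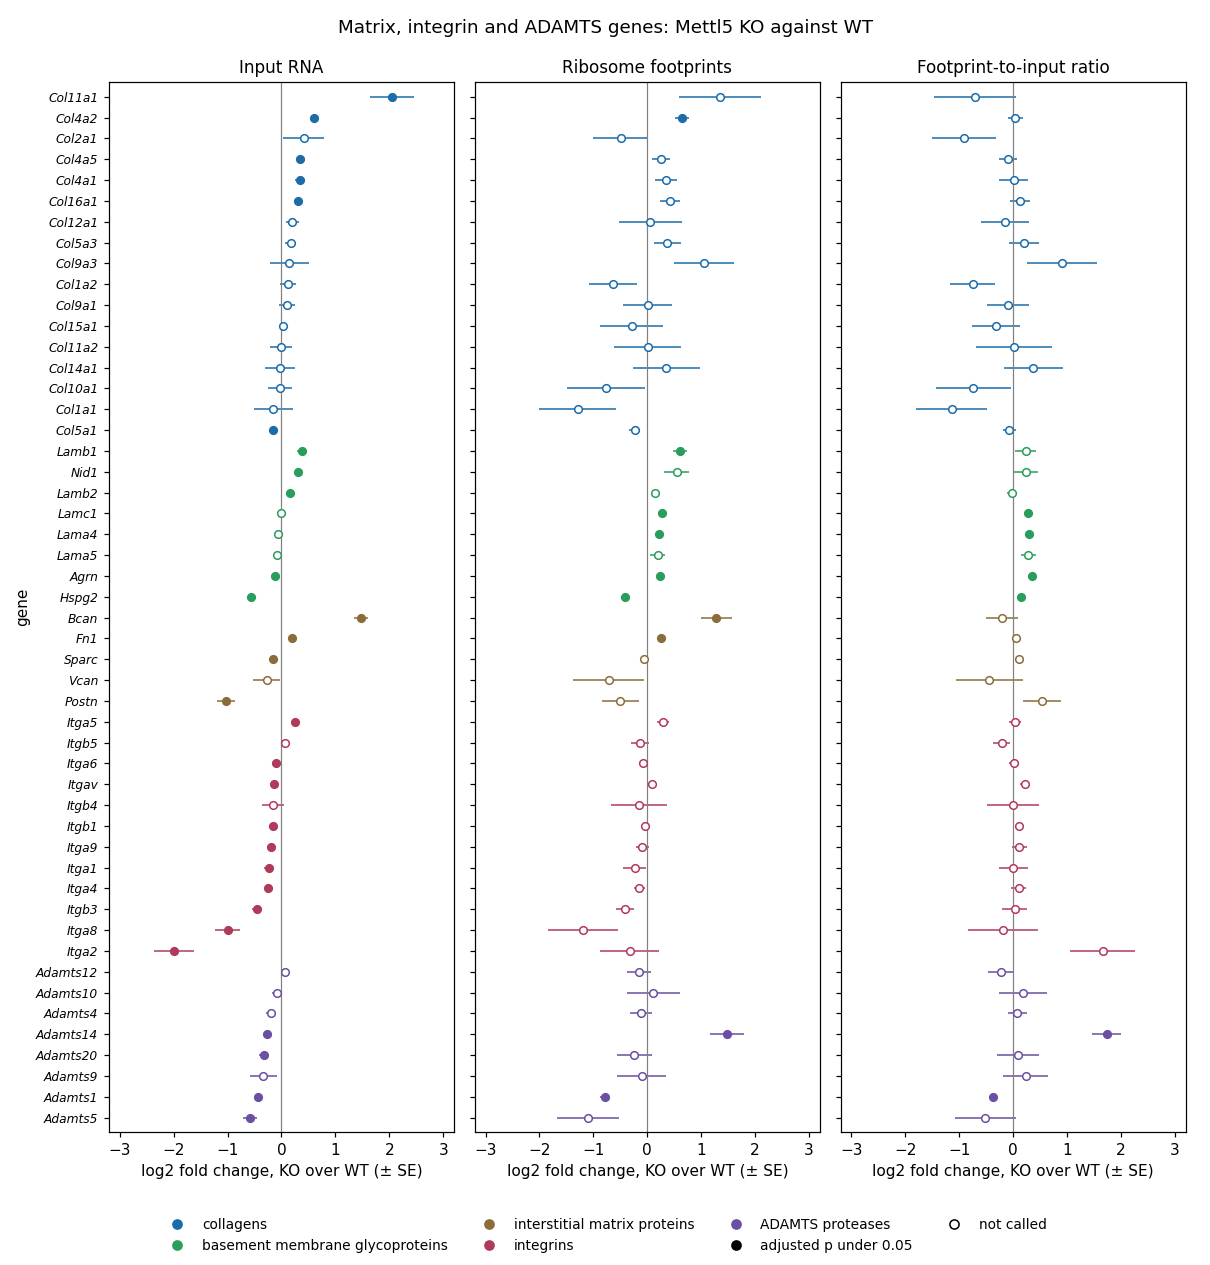
Log2 fold change of each of the 50 genes in KO against WT (points, with SE as bars) in input RNA, footprints and the ratio of footprints to input, coloured by family and ordered within it by the change in input, with filled points for an adjusted p under 0.05. Integrins lie mostly left of 0 in input, and Adamts14 lies left of 0 in input (-0.26) and right of it in footprints (1.47).

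**Figure D3:**
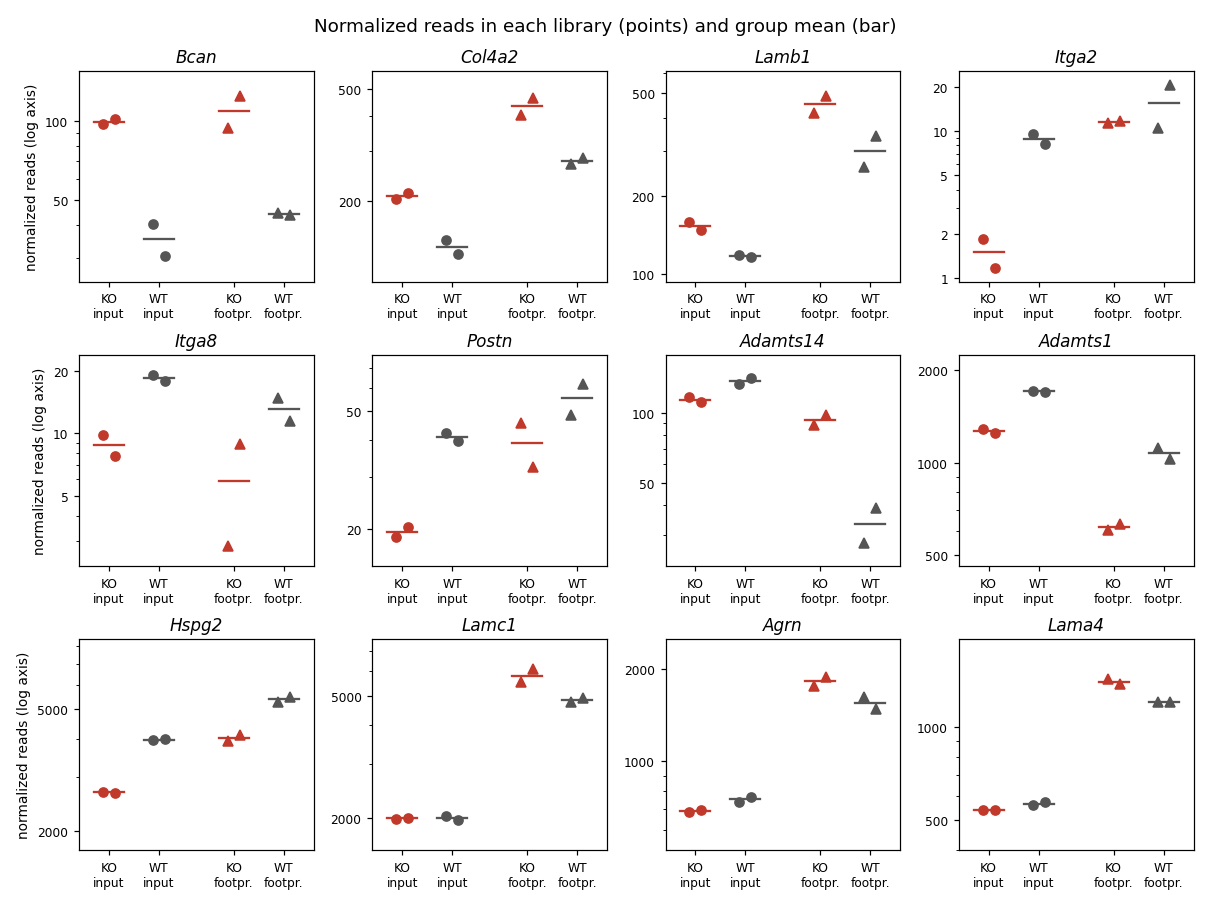
Normalized reads of 12 genes in every library (circles, input; triangles, footprints; red, KO; grey, WT) on a log axis, with a bar at the mean of each group of 2. Footprints of Adamts14 are higher in both KO libraries (88.6 and 97.5) than in WT (27.6 and 39.1), while its input is lower.

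In footprints, which count the ribosomes on each mRNA, Bcan, Col4a2, Lamb1 and Fn1 were higher in KO cells, as in input RNA, and Hspg2 and Adamts1 were lower, as in input RNA. Lamc1, Lama4, Agrn and Adamts14 were higher in footprints without being higher in input. Of the 50 genes 8 were called higher and 2 lower, 20% in all, while over all 10453 genes 12.5% were called, 6.3% higher and 6.22% lower. Of the 11 genes higher in input, 11 had a positive log2 fold change in footprints and 4 were called, and of the 18 lower in input, 15 had a negative one and 2 were called. The median footprint change of these groups was 0.42 and -0.23, against 0.35 and -0.26 in input. The same counts were not made over all genes called in input. Such agreement is therefore not shown to be particular to these genes.

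Bcan had 94.3 and 124 normalized footprints in KO, against 44.5 and 43.7 in WT (1.28 ± 0.29 log2 units, adjusted p = 0.0031). Col4a2 had 406 and 464 in KO footprints and 271 and 285 in WT footprints (0.64 ± 0.13 log2 units, adjusted p = 0.000867). The change of both was close in size to that in input. Col4a1 had 249 and 157 in KO footprints and 153 and 156 in WT footprints and did not pass. Its second KO library lay near both WT libraries, and its first stood above them. Footprints of Col11a1 rested on 5 reads in KO and 2 in WT, a scaled ratio of 3.29 with a 95% exact interval of 0.539 to 34.6. Those of Itga2 rested on 8 reads in KO and 14 in WT, with values of 11.4 and 11.8 in KO and 10.6 and 20.7 in WT that overlap. Their scaled ratio was 0.752 with a 95% exact interval of 0.274 to 1.92. That interval overlaps the one of the ratio in input (0.173, interval 0.0738 to 0.361). Both footprint intervals include 1.

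Of the laminin chains, Lamc1 had 5519 and 6103 in KO footprints and 4756 and 4892 in WT footprints (0.27 ± 0.039 log2 units, adjusted p = 2.16e-05). Lamb1 had 417 and 487 in KO footprints and 259 and 340.3 in WT footprints (0.60 ± 0.14 log2 units, adjusted p = 0.00324), and Lama4 1434 and 1382 in KO footprints and 1212 and 1207 in WT footprints (0.22 ± 0.063 log2 units, adjusted p = 0.0211). The other 2 laminin genes, Lama5 and Lamb2, did not pass in footprints (adjusted p = 0.416 and 0.184). Agrn rose as well, with 1759.7 and 1879 in KO footprints and 1617 and 1483 in WT footprints (0.23 ± 0.06 log2 units, adjusted p = 0.0101). Fn1 had 1554 and 1592 in KO footprints and 1301 and 1340.3 in WT footprints (0.25 ± 0.06 log2 units, adjusted p = 0.00523). Hspg2 fell, with 3934 and 4127 in KO footprints and 5267 and 5476 in WT footprints (-0.41 ± 0.037 log2 units, adjusted p = 6.39e-09). The calls of Lamb1, Lama4, Agrn and Fn1 were lost with DESeq2. Leaving out 1 footprint library also ended those of Lamb1 (0.41 without WT 1), Fn1 (0.23 without WT 1), Agrn (0.18 without KO 2, 0.17 without WT 2) and Lama4 (0.19 without KO 1, 0.22 without WT 1 or 2).

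Integrin footprints gave 0 calls of 12 with limma, edgeR and DESeq2, and DESeq2 gave 5 of 12 no adjusted p. At an unadjusted p under 0.05 with limma were 2 of 12, against 2543 of all 10453 genes. Log2 fold changes ran from -1.19 to 0.28, with 10 of 12 below 0 and a median of -0.15, against 0.0047 for all genes. The share of all genes below 0 was not counted. Itgb1, the best covered, had 7067 and 7255 in KO footprints and 7522 and 7260.2 in WT footprints (-0.046 ± 0.03 log2 units). Itgb3 had 177 and 248 in KO footprints and 299 and 262 in WT footprints (-0.42 ± 0.17 log2 units, adjusted p = 0.111), and Itga5 483 and 461 in KO footprints and 390.0 and 384 in WT footprints (0.28 ± 0.11 log2 units, adjusted p = 0.0969). These 2 are the ones at an unadjusted p under 0.05, and in neither do the KO and WT libraries overlap.

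The proteases Adamts1 and Adamts14 went opposite ways in footprints. Adamts1 had 603 and 632 in KO footprints and 1117 and 1028 in WT footprints (-0.79 ± 0.081 log2 units, adjusted p = 7.39e-08), 1.73-fold lower. Adamts14 (ENSMUSG00000059901.12, chromosome 10, start 61197112, end 61273419) had 88.6 and 97.5 in KO footprints and 27.6 and 39.1 in WT footprints (1.47 ± 0.32 log2 units, adjusted p = 0.00219), 2.78-fold higher, from 64 reads in KO and 30 in WT. Adamts5 had 11.4 and 5.91 in KO footprints and 12.7 and 27.6 in WT footprints, from 6 and 18 reads, and did not pass. The 10 footprint calls of members were 2 higher and 2 lower with DESeq2, which gave 31 of the 50 genes, Bcan and Adamts14 among them, no adjusted p. Over all 10453 genes DESeq2 called 460 and gave 5269 no adjusted p, while edgeR called 1473. Without limma's trend 0 members and 0 of 10453 genes were called (1807 at an unadjusted p under 0.05).

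In the ratio of footprints to input, which asks whether the density of ribosomes on an mRNA differs between the genotypes, 4 basement membrane genes and Adamts14 were higher in KO and Adamts1 was lower. Of the 50 genes these 5 and 1 were called, while over all 10443 genes tested 9.78% were called, 5.11% higher and 4.66% lower, so the share of the 50 (12%) was near that of all genes. The 4 basement membrane genes were 4 of the 8 in that family, and the median log2 change of the family was 0.25, against 0.0050 for all genes. Adamts14 had the largest change of the ratio (1.74 ± 0.27 log2 units, adjusted p = 0.00359), 3.33-fold, and was called under each of the 17 alternatives that gave it a value (1.49 to 1.98 log2 units), while it was left out by the one that asks for 20 reads in every library. In the authors' deposited table it was the 1 of the 50 genes called, as Up (log2 fold change 1.75, adjusted p = 4.68e-05), among 94 Up and 183 Down genes. The authors' deposited table gave the other 5 genes an adjusted p between 0.000254 (Lamc1) and 0.0169 (Lama4) and called none of them. The log2 ratio of Adamts14 was -0.29 ± 0.19 in KO cells and -2.02 ± 0.19 in WT cells (SE). The SE of its change in the ratio (0.27) was below that of its footprint change alone (0.32), since the ratio fit gives input and footprints 1 variance.

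Adamts1 had a log2 ratio of -1.04 ± 0.05 in KO cells and -0.67 ± 0.05 in WT cells (SE), a difference of -0.37 ± 0.071 log2 units, adjusted p = 0.0107. Its footprints fell by more than its input did. Agrn had 1.39 ± 0.053 in KO cells and 1.04 ± 0.053 in WT cells (0.36 ± 0.075 log2 units, adjusted p = 0.0167). In Agrn input was lower and footprints were higher, and this was the 1 gene beside Adamts14 called in opposite directions. Lama4 had 1.38 ± 0.044 in KO cells and 1.10 ± 0.044 in WT cells (0.28 ± 0.063 log2 units, adjusted p = 0.0197), and Lamc1 1.54 ± 0.042 in KO cells and 1.27 ± 0.042 in WT cells (0.27 ± 0.06 log2 units, adjusted p = 0.0207). Hspg2 had 0.59 ± 0.029 in KO cells and 0.44 ± 0.029 in WT cells (0.15 ± 0.041 log2 units, adjusted p = 0.0454), a small difference in a gene whose footprints fell less than its input. These 5 calls were lost without limma's trend. Lama4, Lamc1 and Hspg2 lost theirs without any 1 of the 4 input libraries, Agrn without KO input replicates 1 and 2 and WT input replicate 2, and Adamts1 without KO input replicate 1 and WT input replicates 1 and 2, with an adjusted p between 0.0505 and 0.163. Lamc1 and Hspg2 also lost theirs without WT footprint replicate 1, and Hspg2 without KO footprint replicate 2 and with edgeR. The values in these fits were 0.12 to 0.16 for Hspg2, 0.25 to 0.29 for Lamc1, 0.27 to 0.30 for Lama4, 0.33 to 0.37 for Agrn and -0.38 to -0.34 for Adamts1.

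Collagens, interstitial proteins and integrins had 0 calls in the ratio with limma, edgeR and DESeq2 (0, 1 and 3 genes at an unadjusted p under 0.05 with limma). Over all genes, 2577 of 10443 were under that unadjusted p with limma. DESeq2 gave no adjusted p to 10 of the 17 collagens, 2 of the 5 interstitial proteins and 3 of the 12 integrins, so it did not test these. Leaving out 1 footprint library gave up to 1 call in each family, in collagens and interstitial proteins without KO 1 and in integrins without KO 2 or WT 2. Itga2 had a log2 ratio of 2.35 ± 0.43 in KO cells and 0.68 ± 0.43 in WT cells (1.66 ± 0.61 log2 units, adjusted p = 0.122), on few reads. The other 2 integrins at an unadjusted p under 0.05 were Itgb1 and Itgav, both with a higher ratio in KO (0.10 ± 0.035 log2 units, adjusted p = 0.0986, and 0.22 ± 0.084 log2 units, adjusted p = 0.144). Col4a2, whose input and footprints both rose, had a log2 ratio of 1.05 ± 0.10 in KO cells and 1.01 ± 0.10 in WT cells, and Bcan 0.12 ± 0.21 in KO cells and 0.32 ± 0.21 in WT cells.

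Within a genotype, the ratio itself set the families apart as a description. Footprints come mainly from the coding part of an mRNA, while the region counted in input is not given in the sources used here. Ratios of different genes may therefore also differ with the length of their untranslated parts, which was not tested. Laminins and their partners had a median log2 ratio of 1.39 in KO and 1.07 in WT cells, with 7 of 8 genes above 0 in both. Integrins had 0.65 in KO and 0.57 in WT, collagens 0.069 in KO and 0.016 in WT, interstitial proteins 0.12 in KO and 0.32 in WT, and ADAMTS proteases -0.71 in KO and -0.98 in WT. The median of all genes was -0.014 in KO and -0.0049 in WT, with quartiles of -0.89 and 0.76 in WT. The order of the 5 families by median was the same in KO and WT cells.

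**Figure D4:**
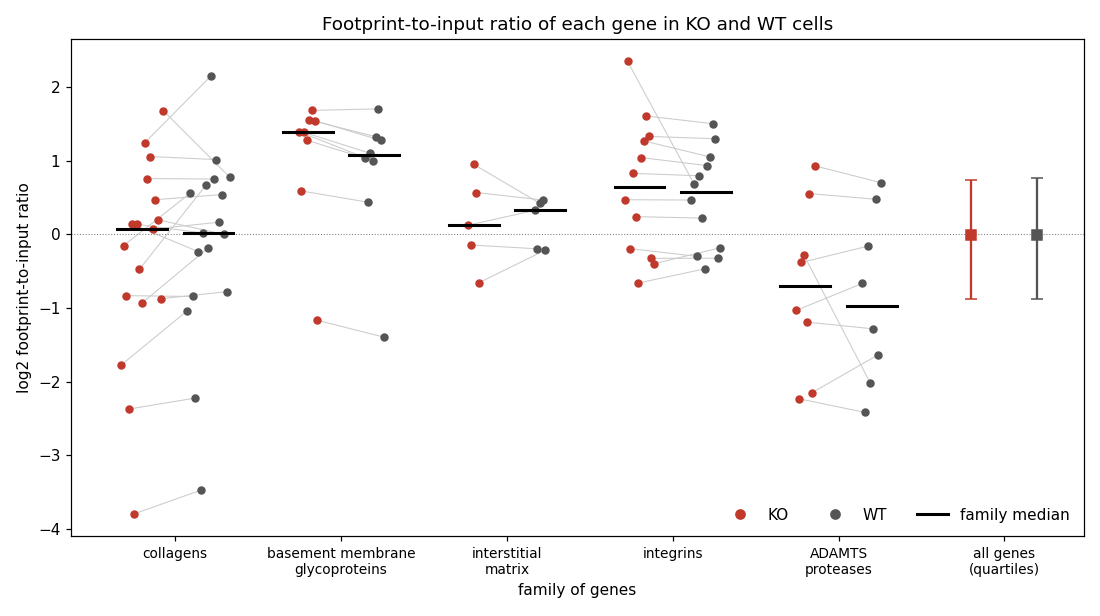
Log2 ratio of footprints to input of each gene in KO (red) and WT (grey), joined by a line and grouped by family, with family medians as black bars and, on the right, the median and quartiles of all 10443 genes. Basement membrane genes lie above 0 except Nid1, and ADAMTS genes lie mostly below 0, with Adamts14 at -0.29 in KO and -2.02 in WT.

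Col15a1, a collagen of basement membrane zones, had the lowest ratio of the 50 genes, with 11.4 and 8.86 in KO footprints and 8.48 and 18.4 in WT footprints for 162 and 145 in KO input and 147 and 153 in WT input (log2 ratio -3.80 ± 0.32 in KO and -3.48 ± 0.32 in WT). Col12a1, which binds the surface of fibrils, had -2.37 ± 0.32 in KO and -2.22 ± 0.32 in WT. These lay at the 2.39 and 7.21 percentile of all genes in WT. Col2a1, the main collagen of cartilage, had the highest ratio in WT (1.24 ± 0.42 in KO and 2.15 ± 0.42 in WT), from 14.3 and 11.8 in KO footprints and 17.0 and 20.7 in WT footprints for 6.13 and 3.91 in KO input and 4.79 and 2.41 in WT input. These were 9 footprint reads in KO and 17 in WT. Of the basement membrane genes, Lamb2 was highest in WT (1.68 ± 0.062 in KO and 1.70 ± 0.062 in WT) with 1505 and 1498 in KO footprints and 1454 and 1276 in WT footprints. Nid1 was lowest (-1.17 ± 0.16 in KO and -1.40 ± 0.16 in WT). Nid1, a binding partner of laminins, had 129 and 139 in KO footprints and 110.2 and 75.9 in WT footprints for 303 and 299.7 in KO input and 239 and 245 in WT input.

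Itgb1 had the highest ratio of the integrins in WT (1.61 ± 0.025 in KO and 1.501 ± 0.025 in WT) and Itga8 the lowest (-0.66 ± 0.46 in KO and -0.47 ± 0.46 in WT), with 2.86 and 8.86 in KO footprints and 14.8 and 11.49 in WT footprints. Of the alpha V partners, Itgb3 had 1.33 ± 0.16 in KO and 1.30 ± 0.16 in WT, and Itgb5 -0.40 ± 0.12 in KO and -0.18 ± 0.12 in WT. Among interstitial proteins the range in WT ran from Vcan (-0.66 ± 0.44 in KO and -0.22 ± 0.44 in WT) to Sparc (0.57 ± 0.023 in KO and 0.46 ± 0.023 in WT). Vcan had 5.71 and 5.91 in KO footprints and 6.36 and 16.1 in WT footprints, on few reads, and Sparc 5176 and 5379 in KO footprints and 5496 and 5499 in WT footprints. Among proteases Adamts10, which binds fibrillin microfibrils, was lowest in WT (-2.23 ± 0.31 in KO and -2.42 ± 0.31 in WT) and Adamts9, which also cuts versican, highest (0.93 ± 0.29 in KO and 0.70 ± 0.29 in WT). Adamts10 had 20 and 20.7 in KO footprints and 12.7 and 27.6 in WT footprints for 106 and 93.0 in KO input and 104 and 106 in WT input. Adamts9 had 20 and 20.7 in KO footprints and 23.3 and 20.7 in WT footprints for 9.51 and 10.9 in KO input and 12.8 and 13.5 in WT input. Neither gene passed the test in any of the 3 comparisons.

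Genes that work with these proteins were counted in lists, beside shares over all genes of 17.9% higher and 18.6% lower in input, 6.3% and 6.22% in footprints, and 5.11% and 4.66% in the ratio. Of 32 measured genes of the integrin adhesion complex (talins, kindlins, focal adhesion kinase and their partners), 5 rose and 18 fell in input with a median log2 fold change of -0.11, 2 rose and 5 fell in footprints (median -0.065), and 4 rose and 1 fell in the ratio (median 0.042). With DESeq2, 1 rose (Tln1, which encodes talin 1) and 0 fell in footprints, with no adjusted p for 6 of the 32, and without limma's trend 0 rose and 0 fell in footprints and in the ratio. Ptk2, which encodes focal adhesion kinase, averaged 789 in KO input and 1016 in WT input (-0.37 ± 0.031 log2 units, adjusted p = 2.38e-12), and its footprints fell by 0.30 on the log2 scale (adjusted p = 0.00755), a footprint call lost with both. Tns1, which encodes the actin linker tensin 1, averaged 27.6 in KO input and 43.9 in WT input (-0.64 ± 0.15 log2 units, adjusted p = 0.000973), a call lost with DESeq2. Lims2, which encodes an adaptor of integrin-linked kinase, rose most, averaging 136 in KO input and 74.7 in WT input (0.86 ± 0.10 log2 units, adjusted p = 3.36e-09). The number that fell in input was 9 with DESeq2 and 6 without limma's trend.

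A list for folding, modifying, exporting or crosslinking collagen had 24 measured genes. Of these, 6 rose and 5 fell in input (median 0.030), and 7 rose and 3 fell in footprints (median 0.051). In the ratio 3 rose and 1 fell (median 0.018). The list also holds Leprotl1, which is not known for such a role and was among the 3 that fell in footprints (-0.45 log2 units). With DESeq2 the counts were 4 and 3 in input, 4 and 1 in footprints and 3 and 1 in the ratio, and without limma's trend 2 and 2, 0 and 0, and 1 and 0. Fkbp10, a collagen chaperone, averaged 204 in KO input and 146 in WT input (0.48 ± 0.069 log2 units, adjusted p = 4.22e-07), and its footprints rose too (0.50 ± 0.11 log2 units, adjusted p = 0.00273), a footprint call lost with both alternatives. Plod1, a lysyl hydroxylase, averaged 373 in KO input and 488 in WT input (-0.38 ± 0.045 log2 units, adjusted p = 6.76e-09), while its ratio rose (0.39 ± 0.079 log2 units, adjusted p = 0.0139). P3h2, a prolyl 3-hydroxylase, averaged 245 in KO input and 309 in WT input (-0.33 ± 0.056 log2 units, adjusted p = 7.32e-06). Ratios also rose for Plod2, another lysyl hydroxylase (0.54 ± 0.078 log2 units, adjusted p = 0.0025), and for P4ha1, a prolyl hydroxylase (0.49 ± 0.062 log2 units, adjusted p = 0.00122). Without limma's trend the ratio call of P4ha1 held, and those of Plod1 and Plod2 were lost.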

How the data were processed

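RNA and ribosome footprints of B16 cells were sequenced in 8 libraries. The submitters' processing notes name Bowtie, without a version, and mm10. For the counter, the annotation and strand, the method is not given in the sources used here. Per the labels, ribosomal RNA was depleted, while input is also called polyadenylated. The authors deposited normalized read counts per gene (unit signal), and 100% of the values were whole multiples of 1 read within 0.001. No column of samples was left unmapped (0). Per the file headers, translational efficiency has a deposited log2 fold change, p-value and call.

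Two-sided tests used limma 3.58.1 with a variance trend (R 4.3.3) on log2(value + 1), where the mean value was at least 1. This scale understates the change of low genes. Input and footprints were fitted separately (2 against 2). The ratio was the genotype by library kind interaction in 8 libraries, with 1 variance per gene although footprints vary more, so p-values may be too small where footprint reads are few. Alternatives were other pseudocounts and filters, median centring, no trend, library weights, a replicate block, leaving out each library, edgeR 4.0.16 and DESeq2 1.42.0 (the last pair on recovered reads). The members and lists were chosen with earlier results of these data known. Full values are given for members called with at least 1.5-fold change and for the highest and lowest WT ratio of each family, and any member may be named. Ranking by level per length was not done, as coding lengths were not used here. For each list, examples are up to 3 genes with the largest called change in input, and Bsg, Plod2, P4ha1 and Tln1 were named after their values were seen. Positions and promoters are RefSeq's (GRCm38.p6), matched by symbol. Intervals cover counting error only.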

Additional observations from a re-analysis of the deposited data

Results flagged for a closer look

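The KO effect differed between input RNA and footprints, by the interaction term of the limma fit over all 8 libraries (adjusted p under 0.05), in 6 of the 50 genes. As footprint change minus input change on the log2 scale, the difference was 1.74 for Adamts14, -0.37 for Adamts1, 0.36 for Agrn, 0.28 for Lama4, 0.27 for Lamc1 and 0.15 for Hspg2. In Adamts14, footprints numbered 64 reads in KO and 30 in WT, and input reads 663 in KO and 623 in WT, all before scaling for depth. The groups of 2 libraries were too small to test for a single library standing apart. The cause of these differences was not tested.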

How the results depend on the processing

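Under the alternatives run, no call of a member changed sign. Of 29 calls in input 11 held in every alternative that gave a value, of 10 in footprints 0, and of 6 in the ratio 1 (Adamts14, which has no value where 20 reads in every library are required). With DESeq2, input gave 7 members higher and 10 lower (1721 genes called), and footprints 2 members higher (460 genes). In footprints DESeq2 gave 5269 of the 10453 genes no adjusted p. Without limma's trend, input gave 7 and 7 (1276 genes), footprints 0 and 0 (0 genes; 1807 at an unadjusted p under 0.05), and the ratio 1 and 0 (133 genes). The cause was not tested. Pseudocounts of 0.5 and 5, no filter on low values, at least 20 reads in every library, centring on the median and edgeR kept each count of members within 1.5 times, as did library weights per kind in the ratio fit.

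Leaving out 1 library at a time (the lone library of a group is then assumed to vary like the others) gave 2856 to 3442 genes in input, with 11 to 11 members higher and 13 to 15 lower. Footprints gave 788 to 1391 genes, with 5 to 8 and 2 to 3 members, with 807 and 788 genes without WT footprint replicates 1 and 2. The ratio gave 419 to 1719 genes, with 1 to 6 and 0 to 2 members. It gave 419, 428, 446 and 431 genes without KO input replicates 1 and 2 and WT input replicates 1 and 2, and 1719 and 1675 without KO footprint replicates 1 and 2. Members higher in the ratio were then 1, 1, 2 and 1 without those input libraries and 3 without WT footprint replicate 1. The single member lower was lost without KO input replicate 1 and WT input replicates 1 and 2, and 2 were called without KO footprint replicate 1. Footprint members higher were 5 without WT footprint replicate 1.

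With a replicate block, 3877 genes were called in input, 1548 in footprints and 938 in the ratio, with 11 and 18, 8 and 2, and 5 and 1 members higher and lower. Same-numbered libraries showed no shared deviation (correlations over 8869 genes between -0.0090 and 0.0066). A shared culture with an effect small beside counting error would not show in this check. The numbers are used here only as names of the libraries. Depth limits the footprints of 18 members with under 10 reads in some library.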

Other observations

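Metalloprotease inhibitors and other receptors were measured beside the members. Of 21 measured matrix proteases and inhibitors, 5 rose and 5 fell in input (median log2 fold change -0.029; 3 and 3 with DESeq2), and 1 rose and 3 fell in footprints (median -0.0015). In footprints DESeq2 called 1 higher (Bsg) and 0 lower and gave 10 of the 21, Timp3 among them, no adjusted p, and without limma's trend 0 rose and 0 fell. Timp3, a matrix-bound inhibitor of metalloproteases and of several ADAMTS enzymes, averaged 140.1 in KO input and 215 in WT input (-0.61 ± 0.071 log2 units, adjusted p = 4.13e-09), and its footprints fell as well (-0.94 ± 0.20 log2 units, adjusted p = 0.00172). Reck, a membrane-bound inhibitor of metalloproteases, averaged 169 in KO input and 119 in WT input (0.50 ± 0.08 log2 units, adjusted p = 3.45e-06), and Adam19, a membrane-bound protease, 57.9 in KO input and 80.1 in WT input (-0.46 ± 0.11 log2 units, adjusted p = 0.000931). The call of Adam19 was lost with DESeq2. In the ratio of footprints to input 1 gene rose (Bsg, 0.16 on the log2 scale) and 0 fell with limma, edgeR and DESeq2, and 0 and 0 without limma's trend. At an unadjusted p under 0.05 with limma were 6 of 21, against 2577 of all 10443 genes.

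A list of matrix receptors other than integrins had 20 measured genes. In input 3 rose and 11 fell (median -0.14), or 3 and 6 with DESeq2. In footprints 2 rose and 3 fell (median -0.051), or 1 and 2 with DESeq2, and in the ratio 2 rose and 2 fell (median 0.080). The list also holds tetraspanins, membrane proteins that are not matrix receptors themselves. Of these, Cd9 and Cd81 fell and Tspan4 rose in input. Both in footprints and in the ratio, Cd81 and Tspan4 fell and Cd63 rose. Without limma's trend 0 rose and 0 fell in footprints and in the ratio. Lrp1, an endocytic receptor, averaged 206 in KO input and 279 in WT input (-0.44 ± 0.059 log2 units, adjusted p = 1.28e-07), and Sdc3, a syndecan, 241 in KO input and 311 in WT input (-0.37 ± 0.054 log2 units, adjusted p = 8.39e-07). Gpc6, a glypican, averaged 97.2 in KO input and 124 in WT input (-0.35 ± 0.092 log2 units, adjusted p = 0.00207), a call lost with DESeq2 and without limma's trend. A list of other matrix glycoproteins and proteoglycans had 20 measured genes. Among them were Creld1 and Creld2, which are known as proteins of the endoplasmic reticulum rather than of the matrix. In input 4 rose, Creld2 among them, and 4 fell, Creld1 among them (median 0.014). With DESeq2 3 rose in input, again with Creld2, and 0 fell. In footprints 3 rose, Creld2 among them, and 0 fell with limma and edgeR (median 0.12). There 8 were at an unadjusted p under 0.05 with limma, against 2543 of all 10453 genes. DESeq2 gave 1 and 0 in footprints and no adjusted p to 10 of the 20, and without limma's trend 0 rose and 0 fell there. Hapln1, a link protein that joins proteoglycans such as brevican to hyaluronan, averaged 386 in KO input and 260.0 in WT input (0.57 ± 0.055 log2 units, adjusted p = 4.75e-11), and its footprints rose as well (0.52 ± 0.10 log2 units, adjusted p = 0.000797). Npnt, which encodes nephronectin, a ligand of integrin alpha 8, averaged 27.3 in KO input and 41.3 in WT input (-0.58 ± 0.16 log2 units, adjusted p = 0.00319), and Matn3, a matrilin, 19.6 in KO input and 27.3 in WT input (-0.46 ± 0.18 log2 units, adjusted p = 0.0489). The calls of Npnt and Matn3 were lost with DESeq2 and without limma's trend, and that of Matn3 also with edgeR. In the ratio 0 of these 20 were called with limma, edgeR and DESeq2 (2 at an unadjusted p under 0.05 with limma, against 2577 of all 10443 genes).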
